A study of Mus musculus with 7 samples.

Results

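Heme synthesis and iron storage genes were described here in bone marrow cells that were captured through CD41, the platelet glycoprotein IIb, and are called MKs below, as in the study. The 9 genes were chosen by name: 6 enzymes of heme synthesis (Alad, Uros, Urod, Cpox, Ppox and Fech), the ferritin chains Fth1 and Ftl1, and the transferrin receptor Tfrc, which takes up iron rather than storing it. They were represented by 21 probes, and they are 9 of the 19057 genes with a named probe. A gene was read from its brightest probe, and genes with a mean log2 signal above 7.5 were tested. This left 6 of the 9 members, Alad, Urod, Ppox, Fth1, Ftl1 and Tfrc, among 5428 tested genes.

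The adult male C57BL/6J mice, 10 to 12 weeks old, carried an osmotic pump that delivered 5-HT (serotonin, loaded at 25.8 mM and infused at 1.66 µg/kg/h) or saline for 24 h. Marrow of 3 to 4 mice went into each sample, and 4 5-HT and 3 saline samples were each hybridized to 1 Illumina mouse BeadChip. The authors had dropped another saline sample as an outlier, which is not analysed here. All samples passed a Percoll gradient and CD41 immunomagnetic beads, and no genetic alteration is given for either group. The number of arrays limits the precision of every value. The p-values measure the spread between these pooled samples, moderated toward the spread shared by all tested genes.

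Heme is built from glycine and succinyl-CoA by a chain of enzymes that starts and ends in mitochondria, and its last step places iron into protoporphyrin. Cells take in iron with transferrin through its receptor and keep the surplus inside ferritin shells made of heavy and light chains. Red cell precursors carry the largest flux through this pathway, while MKs, granulocytes and macrophages also make heme proteins or store iron.

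The values are log2 signals with the same median over all probes, 6.68, in every array. The SD over all probes lay between 1.01 and 1.33 in the 5-HT arrays and between 0.961 and 1.16 in the saline arrays. The median of the tested genes was 9.43, 8.28, 8.96 and 9.03 in 5-HT replicates 1 to 4, against 8.99, 8.15 and 8.32 in saline replicates 1 to 3, and over all tested genes the fold changes had a median of 0.42 on the log2 scale. A positive fold change of a single gene was therefore common: 91.4% of the tested genes had one. Transcripts of neutrophil granules were abundant in the captured samples, with Mpo (myeloperoxidase) at 14.83 to 15.07 in 5-HT arrays and at 14.46 to 15.01 in saline arrays. Of the genes that define the MK lineage, Itga2b, which encodes the CD41 antigen, spanned 9.36 to 12.29 in 5-HT arrays and 8.86 to 12.15 in saline arrays. Mpo thus read above Itga2b in every array, although signals of different probes do not compare amounts of RNA directly. Other pairs went the other way. Pf4, platelet factor 4, read 12.93 to 14.25 in 5-HT arrays and 13.04 to 14.05 in saline arrays. It was above the neutrophil granule genes Mmp8 and Mmp9 in every array. The study cites earlier work for a high MK purity of this isolation. The name MKs stands for the captured samples here, and the values are not assigned to 1 cell type. Since these are bulk samples, fewer cells of a type and less RNA per cell cannot be told apart.

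Promoter sequences are given for Alad and Urod, the members with the highest fold changes, and for Tfrc, the one with the lowest among those tested, because their letters differ in an E-box, CACGTG. Each is the 250 bases before the most upstream start that RefSeq gives on GRCm38.p6, written 5′ to 3′ on the gene's strand, and capitals mark the E-box, which reads the same on both strands.
Alad, GRCm38.p6 chr4:62520064-62520313, minus strand: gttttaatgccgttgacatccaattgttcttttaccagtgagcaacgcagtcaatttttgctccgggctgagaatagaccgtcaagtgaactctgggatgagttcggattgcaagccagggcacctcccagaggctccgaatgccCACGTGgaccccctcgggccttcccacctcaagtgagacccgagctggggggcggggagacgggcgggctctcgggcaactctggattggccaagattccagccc
Urod, GRCm38.p6 chr4:116994414-116994663, minus strand: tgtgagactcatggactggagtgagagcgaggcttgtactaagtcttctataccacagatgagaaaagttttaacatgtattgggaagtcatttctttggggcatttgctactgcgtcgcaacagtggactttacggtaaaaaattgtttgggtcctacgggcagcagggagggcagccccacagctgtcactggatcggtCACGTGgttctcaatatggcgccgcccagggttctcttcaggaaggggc
Tfrc, GRCm38.p6 chr16:32608646-32608895, plus strand: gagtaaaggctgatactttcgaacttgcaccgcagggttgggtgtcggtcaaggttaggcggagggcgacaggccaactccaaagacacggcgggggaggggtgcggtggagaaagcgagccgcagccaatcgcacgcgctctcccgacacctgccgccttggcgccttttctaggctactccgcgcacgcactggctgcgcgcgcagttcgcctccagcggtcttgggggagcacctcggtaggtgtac

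RefSeq starts of the same build were matched for 8 of the 9 members, all but Fech, and gave 12 windows of the 250 bases before a start. The E-box began at -105 from the most upstream start of Alad, at -49 from that of Urod and at -250 from that of Uros. These 3 members accounted for 4 of the 12 windows, beside 6.02% of the 32851 windows of all genes. The GATA motif AGATAA, searched on both strands like every motif here, was in none of the member windows and in 9.99% of all windows. The antioxidant response motif TGACNNNGC was likewise in 0 member windows, beside 10.2% of all. The CCAAT box, CCAAT, was in 7 of the 12 member windows (33.8% of all windows), and the GC box, GGGCGG, in 7 of the 12 as well (32.7% of all windows). The motifs were chosen after the sequences and the fold changes had been seen, and a match is no evidence that a factor binds there.

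Among the enzymes of heme synthesis, Alad and Urod had the highest fold changes, with means 1.66 and 1.63 times those of saline MKs. Neither passed the test at an adjusted p under 0.05, and 1 of the 4 5-HT arrays lay within the saline range in each. Alad encodes aminolevulinate dehydratase, which joins molecules of aminolevulinate into porphobilinogen. Its log2 signal was 10.15, 9.37, 10.30 and 10.55 in 5-HT replicates 1 to 4, against 9.55, 9.15 and 9.38 in saline replicates 1 to 3. Thus 3 of the 5-HT arrays were above every saline array, and 5-HT replicate 2 was not. The means were 10.09 ± 0.51 in 5-HT MKs (SD, n = 4) and 9.36 ± 0.20 in saline MKs (SD, n = 3). The log2 fold change was 0.73 with a standard error of 0.38 and a 95% interval of -0.06 to 1.52, and limma gave an adjusted p of 0.563. A larger fold change was seen in 12.3% of the tested genes.

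Urod encodes uroporphyrinogen decarboxylase, which trims the side chains of the closed ring. It was measured at 11.70, 10.65, 11.30 and 11.48 in the 5-HT arrays, against 10.63, 10.40 and 10.69 in the saline arrays. The pattern was that of Alad: 5-HT replicates 1, 3 and 4 were above all saline arrays and 5-HT replicate 2 fell between saline replicates 1 and 3. In Fth1 and, near the array median, in Cpox the same 5-HT arrays were above all saline arrays. How many tested genes share this was not examined. The means were 11.28 ± 0.45 in 5-HT MKs (SD, n = 4) and 10.57 ± 0.15 in saline MKs (SD, n = 3). The log2 fold change of 0.71 had a standard error of 0.38 and a 95% interval of -0.07 to 1.48, with an adjusted p of 0.563 by limma. Of the tested genes, 14.1% had a larger one.

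**Figure D1:**
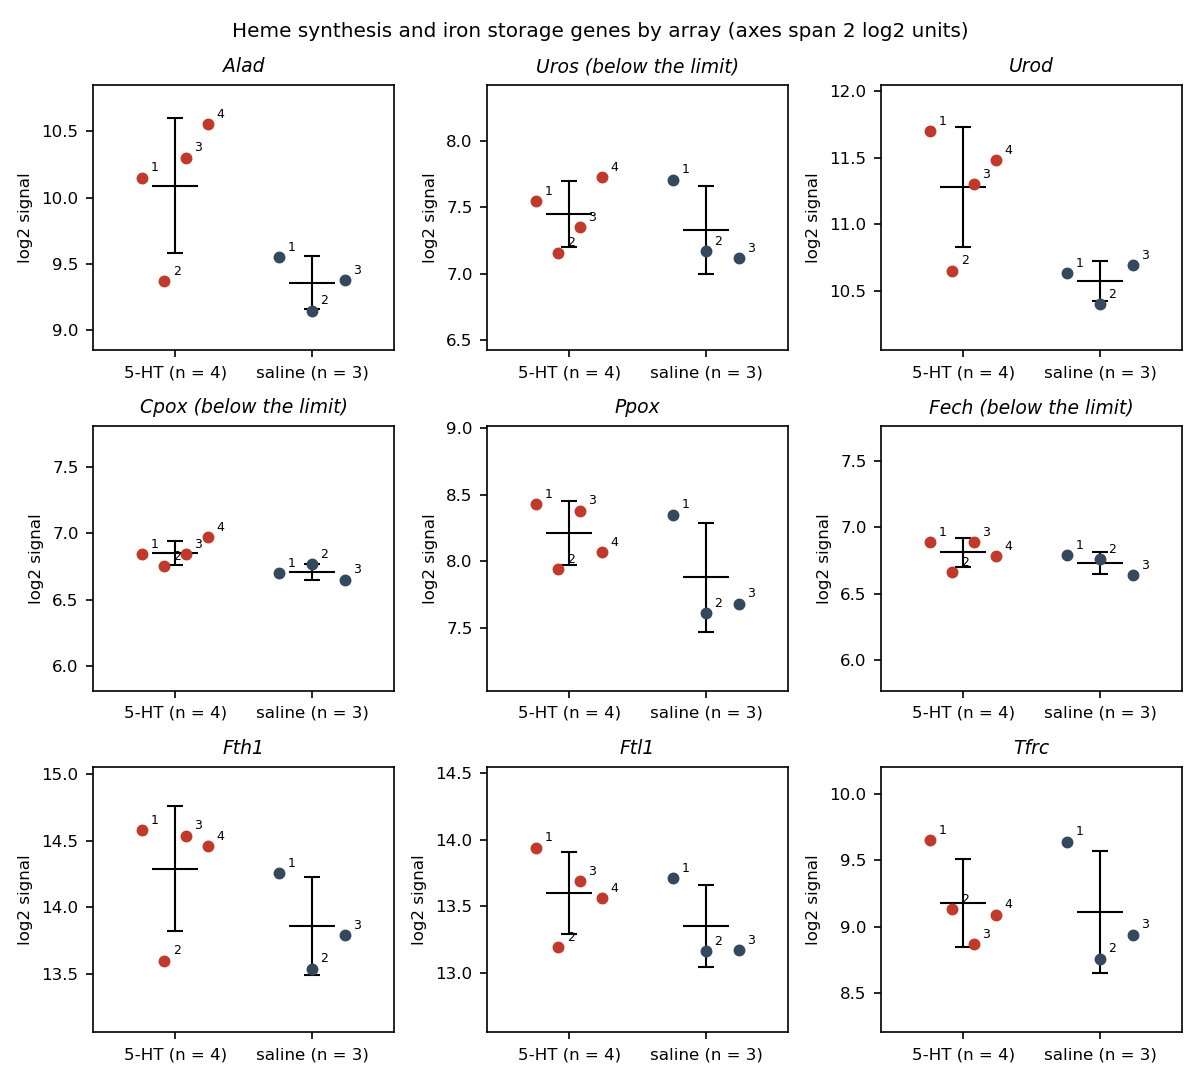
Log2 signal of each of the 9 members (panels) in the 4 5-HT arrays (red) and the 3 saline arrays (dark blue), points being arrays, labelled by replicate number, and bars the mean ± SD. Alad, Urod, Fth1 and Cpox show 3 of 4 5-HT arrays above all saline arrays. Uros, Cpox and Fech lie between 6.64 and 7.73 in both groups.

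Ppox, protoporphyrinogen oxidase, catalyses the step before iron insertion and was the only other enzyme of the 6 above the limit on mean signal. Its values were 8.43, 7.94, 8.38 and 8.07 in 5-HT MKs, against 8.35, 7.61 and 7.68 in saline MKs. Saline replicate 1 stood among the 5-HT arrays, so the groups overlapped. The log2 fold change was 0.33 (standard error 0.37, 95% interval -0.44 to 1.09, adjusted p = 0.628 by limma), and 63.2% of the tested genes had a larger one. A second Ppox probe had a mean of 6.85, near the array median, and a fold change of 0.00.

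The remaining enzymes, Uros, Cpox and Fech, were below the limit and were not tested. Uros, uroporphyrinogen III synthase, closes the ring and was just outside the limit with a mean of 7.40, whereas Ppox passed it with 8.07. The brightest of 3 Uros probes read 7.55, 7.16, 7.35 and 7.73 in the 5-HT arrays and 7.71, 7.17 and 7.12 in the saline arrays, a difference of 0.11. Cpox, coproporphyrinogen oxidase, had 4 probes with means of 6.57 to 6.79. Fech, ferrochelatase, which inserts the iron, had 4 probes with means of 6.65 to 6.77. Their brightest probes gave differences of 0.14 for Cpox and 0.08 for Fech. The 7 arrays of each lay within 0.32 log2 units of each other and close to the median of all probes, so these signals carry little information on the level of either transcript.

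Fth1 encodes the ferritin heavy chain, which oxidises iron as it enters the shell. It was measured at 14.58, 13.60, 14.54 and 14.46 in 5-HT MKs, against 14.26, 13.54 and 13.79 in saline MKs. 5-HT replicate 2 was near the lowest saline array, and the other 5-HT arrays exceeded all saline arrays. The means were 14.29 ± 0.47 (SD, n = 4) in 5-HT MKs and 13.86 ± 0.37 (SD, n = 3) in saline MKs. The log2 fold change was 0.43, with a standard error of 0.38, a 95% interval of -0.36 to 1.22 and an adjusted p of 0.580 by limma. The second Fth1 probe, also above the limit, gave 0.45. Both values were close to the median over all tested genes, 0.42.

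Ftl1, the ferritin light chain, which helps the iron core to form, read 13.94, 13.19, 13.69 and 13.56 in the 5-HT arrays and 13.71, 13.16 and 13.17 in the saline arrays. The ranges overlapped almost fully. Its log2 fold change was 0.25 (standard error 0.37, 95% interval -0.52 to 1.01, adjusted p = 0.686 by limma), smaller than that of 72.8% of the tested genes. The second Ftl1 probe had a mean of 6.54, near the array median, and a fold change of -0.03. Ferritin genes have processed copies in the mouse genome, and whether these probes also bind their transcripts was not examined, so the identity of the signal is uncertain to that extent.

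Tfrc, the receptor that brings transferrin-bound iron into the cell, had nearly equal means, 9.18 ± 0.33 in 5-HT MKs (SD, n = 4) and 9.11 ± 0.46 in saline MKs (SD, n = 3). By array it was 9.65, 9.13, 8.87 and 9.09 in the 5-HT group, against 9.64, 8.76 and 8.94 in the saline group. Replicate 1 was the highest array of each group. Its log2 fold change of 0.07 (standard error 0.38, 95% interval -0.71 to 0.85, adjusted p = 0.903 by limma) was below that of 88.2% of the tested genes, and the second probe, also above the limit, gave 0.12. The interval holds both a loss and a gain of more than 1.5-fold, so the near equality of the means does not show that Tfrc was unaffected.

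None of the 6 tested members passed an adjusted p under 0.05 with limma, as was so for 0 of the 5428 tested genes (0.0%), where the smallest adjusted p was 0.563. At an unadjusted p under 0.05 the members also numbered 0 of 6, beside 5.73% of the tested genes. The definition of a difference in the methods of the study, more than 1.5-fold and an unadjusted p under 0.05, was met by 0 of 6 members. Of all tested genes 310 (5.71%) met it as higher in 5-HT MKs and 1 (0.0184%) as lower. With arrays scaled in other ways this split moved toward genes lower in 5-HT MKs, with 65 higher and 92 lower after quantile normalization, 41 and 103 after cyclic loess normalization, and 52 and 129 with the arrays shifted to the tested genes' median. In the brightest probe of no member were all 5-HT arrays above all saline arrays, which was so for 6.28% of the tested genes, and in none were they all below, which was so for 0.129%. Another Fech probe, at 6.59 to 6.68 in 5-HT arrays and 6.69 to 6.87 in saline arrays, had all 5-HT arrays below, at the level of the array median.

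All 9 members had a positive difference in the values as deposited, as had 91.4% of the tested genes. The median of the 9 was 0.25, beside 0.04 over all 19057 genes. Only 5428 of those passed the limit on mean signal, so the 2 medians cover genes of unlike signal. That of the 6 tested members was 0.38, beside 0.42 over all tested genes. Of the 6, Alad, Urod and Fth1 were above the median of the tested genes and Ppox, Ftl1 and Tfrc were below it. When the median of the tested genes was subtracted from each array, the differences were 0.29 for Alad, 0.27 for Urod, -0.11 for Ppox, -0.01 for Fth1, -0.19 for Ftl1 and -0.37 for Tfrc. On this scale Urod was 2.27 to 2.45 in 5-HT arrays and 1.64, 2.25 and 2.37 in saline arrays, and Tfrc was 0.22, 0.85, -0.09 and 0.06 in 5-HT arrays, against 0.65, 0.61 and 0.62 in saline arrays. The Tfrc values of 5-HT replicates 1, 3 and 4 thus lay below the 3 saline arrays and that of 5-HT replicate 2 above them. By limma on this scale the unadjusted p was 0.246 for Alad, 0.236 for Urod and 0.152 for Tfrc, and the smallest adjusted p of the 6 was 0.883.

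**Figure D2:**
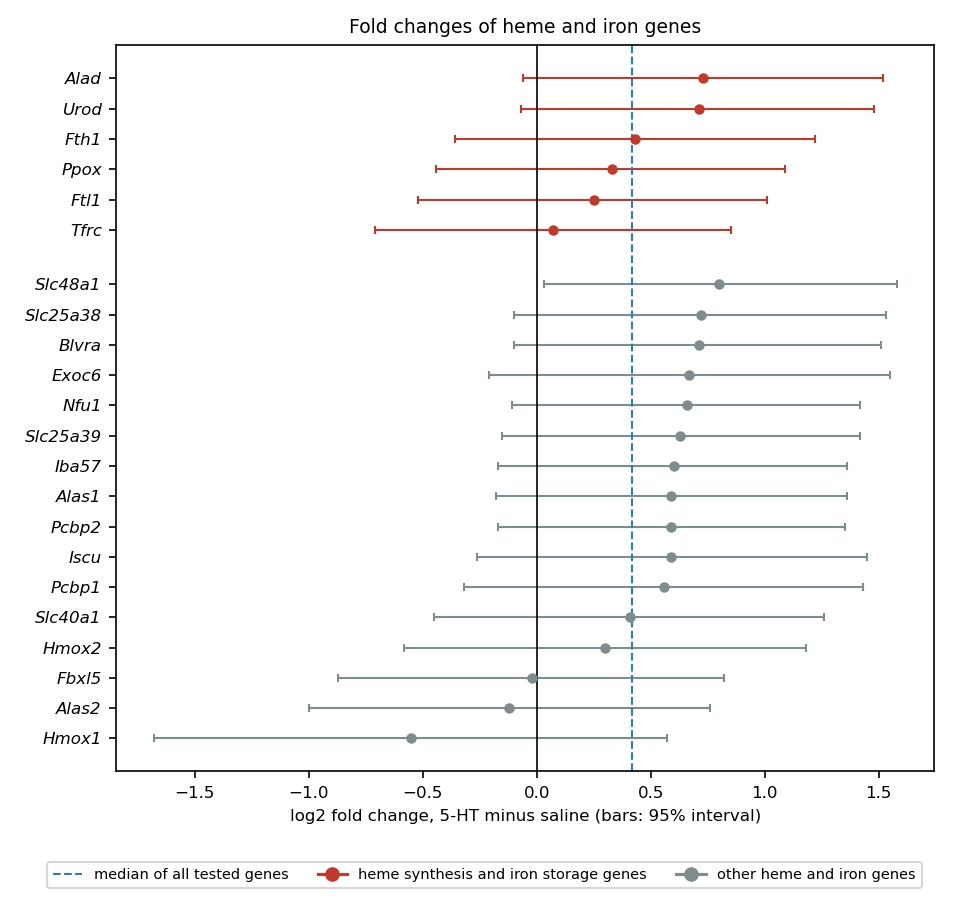
Log2 fold change, 5-HT minus saline, on the horizontal axis for the 6 tested members (red) and 16 other heme and iron genes (grey), each with its 95% interval. The dashed line is the median of all tested genes, 0.42; the intervals of all 6 members include 0, and Alad and Urod lie to the right of the dashed line.

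The members differed in which arrays were high. Alad deviated from its own mean by 0.37, -0.41, 0.52 and 0.77 in the 5-HT arrays, against -0.23, -0.63 and -0.40 in the saline arrays, and Urod by 0.72, -0.33, 0.32 and 0.50, against -0.35, -0.58 and -0.29. Tfrc deviated by 0.50, -0.02, -0.28 and -0.06 in the 5-HT arrays, against 0.49, -0.39 and -0.21 in the saline arrays. Saline replicate 1 was therefore below the mean of the 7 arrays for Alad and Urod, although it was the highest saline array for Alad, and above it for Tfrc. Among the 6 tested members the mean absolute difference of such profiles over the 7 arrays was smallest between Ppox and Ftl1 (0.10 log2 units) and largest between Alad and Tfrc (0.47), with 0.15 for the ferritin chains and 0.17 for Alad and Urod. Of all tested genes, Cdc45, a DNA replication factor (0.041), Sharpin, a ubiquitin ligase subunit (0.047), and Bad, a promoter of apoptosis (0.05), were nearest to the mean profile of Alad, Urod and Ppox, and Piga, of GPI anchor synthesis (0.085), Nrbf2 (0.085) and Alg6, of N-glycan synthesis (0.093), to that of Tfrc. These distances describe 7 arrays that share the scaling and the spread given above.

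Markers of other cells moved across the same arrays. Of 19 erythroid markers 14 were measured and 3 passed the limit. Below it, Klf1 and Car1 stayed between 6.60 and 6.89 in 5-HT arrays and between 6.57 and 6.92 in saline arrays, near the array median. Others below the limit varied more. Epor was 6.82 to 7.88 in 5-HT arrays and 6.87 to 8.02 in saline arrays, and Car2 was 6.78 to 7.64 and 7.03 to 7.41. The summed signal of the erythroid list was 4037 to 15429 in 5-HT arrays and 9350 to 17618 in saline arrays. Hba-a1, the alpha chain of hemoglobin, which has a near-identical copy, was 13.67, 11.36, 13.12 and 13.47 in 5-HT MKs, against 13.89, 12.90 and 13.02 in saline MKs. Its log2 fold change was -0.36, that of Slc4a1, the red cell anion exchanger, was -0.26, and that of Sptb, the erythroid spectrin beta chain, was 0.48. The 5-HT array with the least Hba-a1, replicate 2, was also the lowest 5-HT array for Alad, Urod, Ppox, Fth1 and Ftl1. That array also had the lowest tested-gene median of the 5-HT arrays (8.28), and saline replicate 1 the highest of the saline arrays (8.99). With this median subtracted from each array, 5-HT replicate 2 was the highest 5-HT array for Ppox (-0.34) and Ftl1 (4.91). It was then not the lowest for Alad, Urod or Fth1. Saline replicate 1, with the most Hba-a1, was the highest saline array for Alad (9.55), Ppox (8.35), Fth1 (14.26) and Ftl1 (13.71), and it lay between the other saline arrays for Urod (10.63). The part of erythroid cells in these values was not tested.

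The mean of the 10 tested MK markers was 11.77, 9.19, 10.55 and 11.79 in 5-HT arrays, against 11.68, 9.30 and 9.16 in saline arrays. Of the 14 listed, 12 were measured, and their summed signal was 12612 to 55865 in 5-HT arrays and 13362 to 51040 in saline arrays. Saline replicate 1 was thus close to 5-HT replicates 1 and 4 in MK markers. It was lower than those in Alad (9.55, beside 10.15 and 10.55) and in Urod (10.63, beside 11.70 and 11.48), and also in Fth1 (14.26, beside 14.58 and 14.46). It lay between them in Ppox (8.35, beside 8.43 and 8.07) and Ftl1 (13.71, beside 13.94 and 13.56), and it was close to 5-HT replicate 1 in Tfrc (9.64, beside 9.65). With the tested-gene median subtracted, saline replicate 1 stayed lower in Alad (0.56, beside 0.72 and 1.52) and Urod (1.64, beside 2.27 and 2.45). On that scale it lay between them in Fth1 (5.27, beside 5.15 and 5.43). It was above both in Ppox (-0.64, beside -1.0 and -0.96), Ftl1 (4.72, beside 4.51 and 4.53) and Tfrc (0.65, beside 0.22 and 0.06). Neutrophil granule genes, all 12 of which were tested, gave log2 fold changes with a median of 0.30, and 3 of the 12 were above the median of the tested genes. They summed to 251817 to 290904 in 5-HT arrays and 201441 to 246054 in saline arrays, without overlap. The eosinophil list (3 of 7 measured genes tested, median log2 fold change 1.74) summed to 2430 to 20153 in 5-HT arrays and 1115 to 1932 in saline arrays, also without overlap. In that list Prg2, the brightest gene, and Prg3 did not overlap, whereas Ear6 and Epx did. Every 5-HT array was above every saline array in 6.28% of the tested genes. Its Ccr3, Il5ra and Siglecf stayed near the array median in both groups. These sums were not adjusted for the tested-gene medians, which were mostly higher in the 5-HT arrays. How often such sums do not overlap in other gene lists of this size was not examined. The monocyte and macrophage list (8 of 10 tested) summed to 7580 to 15823 and 4751 to 18953, and the B lineage list (1 of 6 tested) to 1435 to 3205 and 1286 to 1719, in 5-HT and in saline arrays. The part of these cells in the values of the members was not tested.

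**Figure D3:**
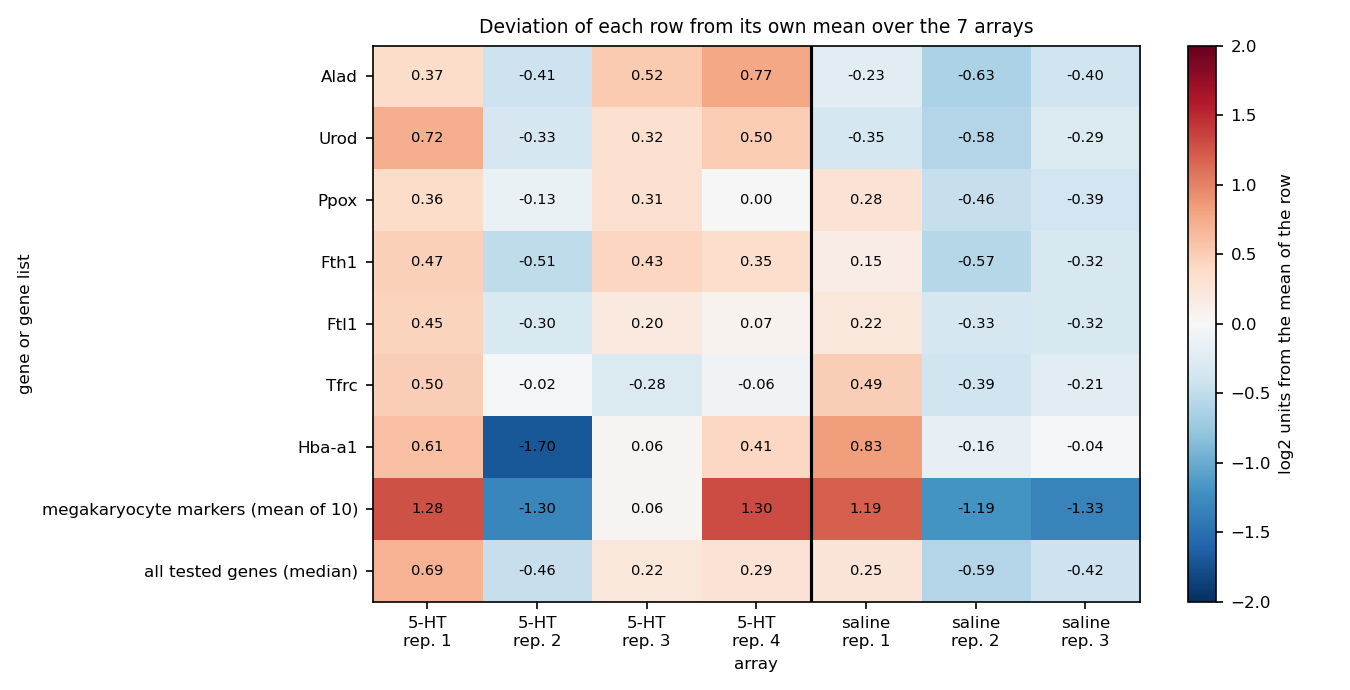
Deviation of each row from its own mean over the 7 arrays, in log2 units, by colour and number, for the 6 tested members, Hba-a1, the mean of 10 MK markers and the median of all tested genes; 5-HT arrays are left and saline arrays right of the black line. Saline replicate 1 shares the high MK markers of 5-HT replicates 1 and 4 and has Alad and Urod below their means (-0.23 and -0.35).

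Of 70 other genes of heme and iron handling, 63 were measured and 37 were tested. Their fold changes were positive in 33 and negative in 4 (Alas2, Hmox1, Fbxl5 and, at -0.16, the heme-binding protein gene Hebp1), the median was 0.37, and 0 passed an adjusted p under 0.05 with limma. Of them, 1 gene, Slc48a1, had an unadjusted p under 0.05 and a fold change above 1.5, beside 5.71% of all tested genes. Alas1, which makes aminolevulinate in most tissues and is the rate-limiting enzyme there, was 13.16, 12.33, 13.18 and 12.74 in 5-HT MKs, against 12.50, 12.05 and 12.23 in saline MKs. This gave 0.59 on the log2 fold scale (standard error 0.37, adjusted p = 0.563 by limma). Alas2, its erythroid counterpart, had 8.75, 6.98, 7.92 and 7.91 in 5-HT MKs, against 8.69, 7.54 and 7.81 in saline MKs, and the log2 fold change, -0.12, had a standard error of 0.43 (adjusted p = 0.856 by limma).

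Slc48a1, a heme transporter of endosomal membranes, was 11.17, 10.22, 11.12 and 11.08 in 5-HT arrays, against 10.07, 9.91 and 10.30 in saline arrays. As in Alad and Urod, only 5-HT replicate 2 lay inside the saline range. This was a log2 fold change of 0.80 (standard error 0.38, 95% interval 0.03 to 1.58, adjusted p = 0.563 by limma). It was 0.33 with quantile normalization, 0.30 with cyclic loess and 0.36 with arrays shifted to the tested genes' median (standard errors 0.22, 0.21 and 0.24), and 0.99 with array weights (adjusted p = 0.00267 by limma, and 0.00267 to 0.998 over the alternatives). Of the 12 tested genes for the transport of heme and its precursors, the next were Slc25a38 (0.72), the mitochondrial glycine carrier that feeds heme synthesis, and Slc25a39 (0.63), a mitochondrial carrier, and the median was 0.38. The adjusted p was 0.563 for each of these.

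In heme breakdown, Blvra, which reduces biliverdin to bilirubin, gave 0.71 on the log2 fold scale (standard error 0.39), and Hmox2, the constitutive heme oxygenase, gave 0.30 (standard error 0.43). Hmox1, the inducible heme oxygenase, was 7.76, 7.32, 8.07 and 8.55 in 5-HT MKs, against 10.51, 7.69 and 7.24 in saline MKs. Its log2 fold change, -0.55, followed saline replicate 1, the only array above 9 (standard error 0.55, adjusted p = 0.600 by limma). That array also had the highest C1qb, a complement gene of macrophages, at 11.98, beside 8.17 to 10.90 in 5-HT arrays and 7.93 and 8.87 in the other saline arrays. The part of macrophages in the Hmox1 value was not tested.

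Of 9 tested genes for iron uptake, export and recycling, apart from Tfrc, all had positive fold changes, with a median of 0.30, and 0 passed the test. Exoc6, an exocyst subunit needed for transferrin recycling, had 0.67 (standard error 0.43), and the iron chaperones Pcbp2 and Pcbp1 had 0.59 and 0.56. Slc40a1, ferroportin, the exporter of cellular iron, was 12.18, 10.86, 11.00 and 10.46 in 5-HT MKs, against 11.03, 10.35 and 10.77 in saline MKs, and its fold change was 0.41 on the log2 scale (standard error 0.41, adjusted p = 0.602 by limma). Ireb2 and Aco1, the iron regulatory proteins that control ferritin and transferrin receptor mRNA, were below the limit, with differences of 0.14 and 0.22. Fbxl5, the iron-sensing ubiquitin ligase subunit, had -0.02. The other ferritin measured was below the limit too. Among 9 tested genes of iron-sulfur cluster assembly the median was 0.51. Nfu1, which helps to deliver such clusters, was 9.68, 8.76, 8.95 and 9.07 in 5-HT arrays, against 8.35, 8.36 and 8.67 in saline arrays, and it was the only one of the 37 genes whose groups did not overlap, beside 6.28% of all tested genes with every 5-HT array above every saline array. Its log2 fold change was 0.66 (standard error 0.37, adjusted p = 0.563 by limma), and those of Iba57 and Iscu were 0.60 and 0.59.

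Across 17 alternative settings the sign of the Alad and Urod fold changes was positive in all 17, from 0.24 to 1.12 for Alad and from 0.21 to 0.92 for Urod. Some settings could not change them: each gene has 1 probe, so other limits, averaged probes, and trend and robust left 0.73 and 0.71. Quantile normalization, cyclic loess and the shift to the tested genes' median gave 0.29, 0.24 and 0.29 for Alad. They gave 0.23, 0.21 and 0.27 for Urod, with adjusted p of 0.838 or more by limma for both genes. Fth1 was below 0 with the arrays shifted to the tested genes' median (-0.01), and Tfrc kept its sign in 10 settings and spanned -0.39 to 0.33. Leaving out 5-HT replicate 2 gave 0.97 for Alad and 0.92 for Urod (adjusted p = 0.132 and 0.133 by limma) and took both past 1.5-fold and an unadjusted p of 0.05. With array weights, which gave 5-HT replicate 2 and saline replicate 1 the lowest weights of their groups (0.308 and 0.329), Alad, Urod and Fth1 passed an adjusted p under 0.05, as did 3281 of the tested genes. The adjusted p over the alternatives was 0.0014 to 0.998 for Alad, 0.00519 to 0.998 for Urod and 0.0133 to 0.998 for Fth1.

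**Figure D4:**
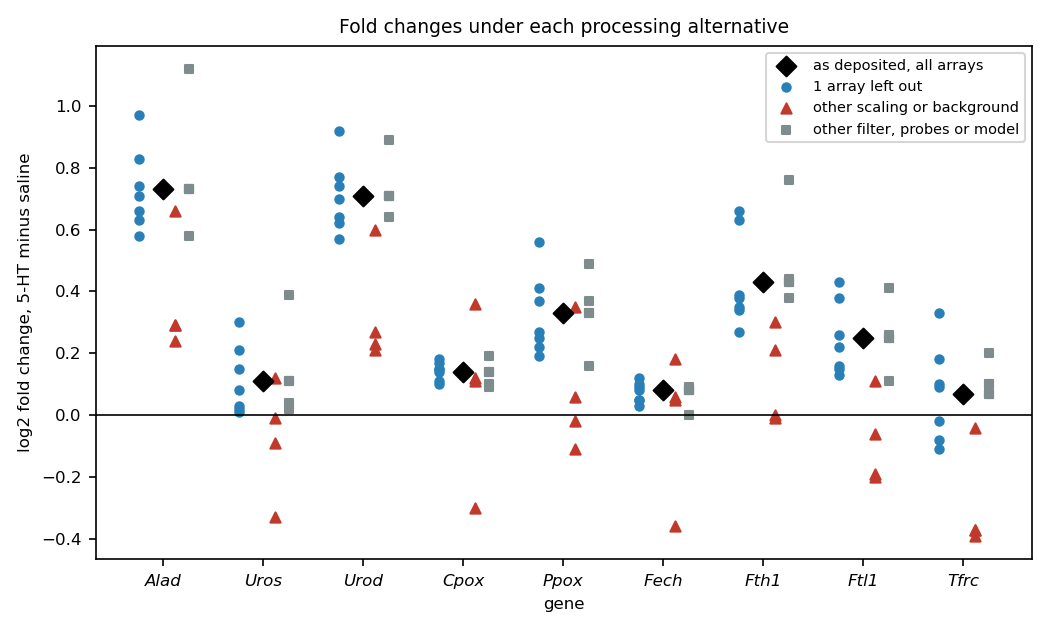
Log2 fold change, 5-HT minus saline, on the vertical axis for the 9 members (horizontal axis), with the values as deposited as black diamonds and each alternative setting as a point: circles for 1 array left out, triangles for other scaling or background correction, squares for other filters, probes or models. Alad and Urod stay above 0 throughout, and Tfrc lies on both sides (-0.39 to 0.33).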

How the data were processed

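Pooled CD41-isolated MKs of 5-HT-infused (4 samples) and saline-infused (3 samples) mice were profiled on Illumina mouse BeadChips, 1 array each. The authors exported the signals from GenomeStudio and deposited log2 values shifted to a common median. Whether the background was subtracted is not given in the sources used here. A further deposited table has 14 columns, of signals and of detection p-values, whose names match no sample, and was not used. A limit on detection p-values and a block for slide or scan date could therefore not be run. Of 45281 probes, 34885 had 1 gene symbol, 18 had several and 10378 had none listed, and the last 2 kinds were left out. The identifiers of 34807 named probes matched the mouse gene table (GRCm38.p6), and 0 symbols differed.

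Genes were read from their brightest probe. Those with a mean log2 signal above 7.5, 5428 in number, entered a linear model of the group in limma (version 3.58.1, R 4.3.3; lmFit, then eBayes). Residual degrees of freedom were 5 and prior ones 18.87, so a gene's standard error draws mostly on the spread shared by all tested genes. The p-values were adjusted by Benjamini-Hochberg over the 5428 genes. Fold changes are 5-HT minus saline on the log2 scale. The fit was tested on simulated data with independent noise in each gene, which lack the array-wide differences seen here. The standard errors of the fit depend on the genes kept, since with no limit on mean signal that of Alad was 0.28 in place of 0.38.

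The members and lists were chosen with earlier results of these data known. Named beside the 9 members were, in each other heme or iron list, the 3 tested genes with the largest absolute fold change, genes fixed by name (among them Alas1, Alas2, Hmox1, Ftl2, Slc40a1, Ireb2 and Aco1), and the 3 genes nearest in profile to the tested heme enzymes and to Tfrc. Hebp1 and the markers printed singly were picked after their values were seen where this rule does not name them. Ftl2 was not analysed here. Alternatives were quantile and cyclic loess normalization, normexp with an offset of 16, a shift to the tested genes' median, a limit of 8 or none, averaged probes, each other probe on its own, array weights, eBayes with trend and robust, a replicate block, and leaving out each array in turn.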

Additional observations from a re-analysis of the deposited data

Results flagged for a closer look

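Of 33 named genes examined, 5 had a single 5-HT array far from the other 3, and in all 5 it was replicate 2, the 5-HT array with the lowest median over the tested genes (8.28). Fth1 was at 13.60 there, beside 14.46 to 14.58 in the other 5-HT arrays. Slc48a1 was at 10.22, beside 11.08 to 11.17, and Slc25a39 at 7.93, beside 8.84 to 9.0. Blvra was at 9.48, beside 10.36 to 10.47, and Bad at 8.62, beside 9.32 to 9.41. The gap to the nearest other array was 0.85 to 0.905 of the whole range of the group. Chance alone marks about 1 in 20 groups in this way, where genes are picked without regard to their values. Some of the 33 were named for their fold change or profile, and genes of 1 array are not independent.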

How the results depend on the processing

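Genes with an adjusted p under 0.05, 0 in the values as deposited, numbered 3281 with array weights, 3 with trend and robust, 45 with the replicate block and 0 to 77 when 1 array was left out (77 without saline replicate 1), and they stayed at 0 in 11 of 17 alternatives. Members among them numbered 3 with array weights (Alad, Urod and Fth1) and 0 otherwise. The weights were estimated under the group labels and their estimate stopped before it converged. Without saline replicate 1, 2 or 3 every gene had the same standard error (0.434, 0.500 and 0.518), so calls there follow the fold change alone. Genes past a fold change of 1.5 with an unadjusted p under 0.05, 311 as deposited, numbered 157 with quantile normalization, 144 with cyclic loess, 181 with arrays shifted to the tested genes' median, 201 with normexp, 3345 with array weights and 1241 with the replicate block. Leaving out 1 array gave 55 to 1690: 1490, 55 and 61 without saline replicates 1, 2 and 3, and 156, 1690, 69 and 187 without 5-HT replicates 1, 2, 3 and 4. Members past it, 0 as deposited, were 3 with array weights (Alad, Urod and Fth1), 2 with no limit on mean signal and 2 with the mean of the probes (Alad and Urod in both), 1 with the replicate block (Urod), and 0 to 2 with 1 array left out, 2 being without 5-HT replicate 2.

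The median over the members was -0.19 after the shift to the tested genes' median, and 0.15 to 0.43 with 1 array left out. The median of all tested genes, 0.42 as deposited, was 0.08 after quantile, 0.03 after cyclic loess and -0.02 after the shift. That shift gave -0.30 for Cpox, -0.36 for Fech, -0.01 for Fth1, -0.19 for Ftl1, -0.11 for Ppox, -0.37 for Tfrc and -0.33 for Uros. Quantile normalization gave -0.06 for Ftl1, -0.37 for Tfrc and -0.01 for Uros, and cyclic loess gave -0.20 for Ftl1, -0.02 for Ppox, -0.39 for Tfrc and -0.09 for Uros. Normexp gave -0.04 for Tfrc. With 1 array left out Tfrc was -0.11 to 0.33, and it was negative without saline replicate 2 (-0.11), saline replicate 3 (-0.02) or 5-HT replicate 1 (-0.08). Other probes gave -0.01 and -0.13 for Fech, -0.03 for Ftl1 and -0.01 for Uros. The cause was not tested.

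Samples of the same number deviated together with correlations of 0.145, 0.684 and -0.247 for replicates 1 to 3. Samples of different numbers had correlations of -0.72 to 0.58, so these values cannot decide whether the numbers pair the samples. The replicate block, in which 5-HT replicate 4 has no saline partner and drops out of the comparison, gave 0.58 for Alad and 0.64 for Urod (adjusted p = 0.22 and 0.189 by limma).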
